A study of Saccharomyces cerevisiae with 10 samples.

Results

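The 7 genes described here encode the enzymes that make and degrade glycogen in Saccharomyces cerevisiae: PGM2 (YMR105C), UGP1 (YKL035W), GSY1 (YFR015C), GSY2 (YLR258W), GLC3 (YEL011W), GPH1 (YPR160W) and GDB1 (YPR184W). They were chosen by name, from what the enzymes do, with earlier results of these data known. They are 7 of the 6717 yeast genes with deposited values. Their mRNAs were followed in rpb1-1/caf1Δ cells in 10 samples over 1 hour, taken at 0, 3, 6, 8 and 10 min and again at 15, 20, 30, 45 and 60 min around a shift to 37 °C, with the 0 min sample taken before the shift from a culture growing at 24 °C. All 10 libraries come from this one strain, of mating type a, with caf1 replaced by HIS3 and auxotrophic markers in ura3, his3 and leu2. It carries a temperature-sensitive largest subunit of RNA polymerase II, meant to stop mRNA synthesis at 37 °C, and lacks Caf1 (Pop2), a deadenylase of the Ccr4-Not complex. A single library was made at each time point, so no value at a time point has a replicate error, and heat and shut-off act on the same samples and cannot be told apart. Cells with intact CAF1 were not analysed here.

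Glycogen is the branched glucose polymer in which yeast stores carbon. Phosphoglucomutase (PGM2) and UDP-glucose pyrophosphorylase (UGP1) supply UDP-glucose, glycogen synthase (GSY1, GSY2) builds it into chains, and the branching enzyme (GLC3) adds branch points. Glycogen phosphorylase (GPH1) releases glucose-1-phosphate from the chain ends, and the debranching enzyme (GDB1) removes the branches. Genes for both directions are known to be induced together by heat and other stresses and when glucose runs low. Part of this induction is known to act through the stress response element, the motif AGGGG, which is bound by the transcription factors Msn2 and Msn4.

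Every one of the 7 genes held this motif upstream of its start codon, which is why 4 upstream stretches are printed here. AGGGG or its complement CCCCT, counted on both strands in the 500 bases before the start codon, a window that includes the 5′ leader, was found 5 times for PGM2 and 4 times for UGP1. It was found 3 times for GLC3, 2 times each for GSY1, GSY2 and GPH1, and once for GDB1. At least 1 match was present for 7 of 7 genes and for 33.7% of 5439 named protein-coding genes. At least 2 matches were present for 6 of 7 and for 7.91% of all genes. Matches were searched in the R64 reference, whose RefSeq annotation also gave the positions, and not in the SacCer2 build used for the alignment. A match is a run of letters and not a measured binding site. The sequences are the R64 stretches of 300 bases upstream of PGM2 (chrXIII:477713-478012, minus strand), GPH1 (chrXVI:860949-861248, plus strand), GSY2 (chrXII:660339-660638, plus strand) and GSY1 (chrVI:176559-176858, minus strand), written 5′ to 3′ along the coding strand, with each motif in capitals.
PGM2: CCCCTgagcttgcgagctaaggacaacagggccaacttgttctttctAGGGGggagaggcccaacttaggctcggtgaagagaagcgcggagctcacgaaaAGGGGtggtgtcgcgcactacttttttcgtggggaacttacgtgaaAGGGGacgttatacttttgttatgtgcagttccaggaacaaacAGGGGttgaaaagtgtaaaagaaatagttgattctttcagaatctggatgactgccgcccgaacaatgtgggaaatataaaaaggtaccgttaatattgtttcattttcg
GPH1: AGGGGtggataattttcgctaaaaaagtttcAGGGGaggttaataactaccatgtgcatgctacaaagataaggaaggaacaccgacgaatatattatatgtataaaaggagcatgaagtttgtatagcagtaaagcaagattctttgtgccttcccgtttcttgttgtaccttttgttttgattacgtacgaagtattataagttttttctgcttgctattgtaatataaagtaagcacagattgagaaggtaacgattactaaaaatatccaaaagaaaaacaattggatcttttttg
GSY2: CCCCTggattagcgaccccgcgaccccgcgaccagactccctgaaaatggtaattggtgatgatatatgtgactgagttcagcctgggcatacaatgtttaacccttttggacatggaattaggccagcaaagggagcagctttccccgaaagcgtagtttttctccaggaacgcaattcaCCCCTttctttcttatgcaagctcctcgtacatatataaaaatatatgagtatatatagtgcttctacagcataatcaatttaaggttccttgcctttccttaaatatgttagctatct
GSY1: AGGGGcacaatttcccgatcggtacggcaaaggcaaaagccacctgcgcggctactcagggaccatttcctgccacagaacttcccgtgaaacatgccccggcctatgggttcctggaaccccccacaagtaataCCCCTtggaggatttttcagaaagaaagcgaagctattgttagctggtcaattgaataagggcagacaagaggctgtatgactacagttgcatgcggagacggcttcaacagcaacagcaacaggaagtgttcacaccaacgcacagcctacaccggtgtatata
The 5 matches of PGM2 lie at 406, 359, 305, 259 and 216 bases before the start codon, counted to the first base of the motif, and 4 of the 5 read AGGGG in the direction of the gene. GPH1 has its 2 matches close together, at 357 and 326 bases. In GSY2 they lie at 377 and 196 bases and in GSY1 at 467 and 332 bases.

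The deposited values are FPKM, fragment numbers per length of transcript and per depth of library. Each was divided here by a factor from the summed FPKM of 92 ERCC spike-ins, synthetic RNAs added to the input RNA. This factor was between 1 at 0 min and 1.42 at 60 min. Low FPKM values fall on steps of whole fragments, and from these steps the libraries hold an estimated 2290090 fragments at 15 min, the lowest, to 4984200 at 45 min. Between 94% and 97.5% of 200 low values per library lay within 0.1 of a whole fragment. All ranges given after a level or a fold are 95% exact Poisson or Poisson-based intervals of these estimated fragments. They cover counting error only. CAF1, listed as POP2 (YNR052C), had 0.887 scaled FPKM at 0 min and 0 at 30 and 60 min, whereas CCR4 (YAL021C), the gene of the other deadenylase of the complex, had 56.9 at 0 min. Over the 5171 tested genes with a value at 0 min, the median gene stood at 0.496 of its starting level at 15 min and at 0.359 of it at 60 min. Each library holds the RNA of many cells, so more RNA per cell and a larger share of cells that hold it cannot be told apart.

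Most glycogen mRNAs were more abundant after the shift, while the median mRNA declined. The median of the 7 stood at 1.57 times the starting level after 15 min, at 2.03 times after 20 min and at 1.80 times after 60 min. PGM2, GSY2, GLC3, GPH1 and GDB1 exceeded their starting level in each of the 9 later libraries. Among these values, the counting interval includes 1 for GSY2 at 6 min and for GLC3 at 60 min. UGP1 was above its starting level in 7 and GSY1 in 6 of the 9. At 15 min 7 of the 7 were above it, against 404 of 5171 genes, and at 60 min 5 of the 7, against 342. The share of all genes above it in each later library was not computed. At least a 2-fold excess over 0 min was reached at 15 min by 3 of the 7 (PGM2, UGP1 and GPH1), against 1.64% of all genes, and at 60 min by 1 of the 7 (GPH1), against 1.2% of all genes. The count at 60 min moves with the scaling. It was 4 of the 7 on FPKM as deposited, against 132 of 5171 genes. With the same total FPKM in each library it was 5 of the 7, against 296 of 5171 genes.

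**Figure D1:**
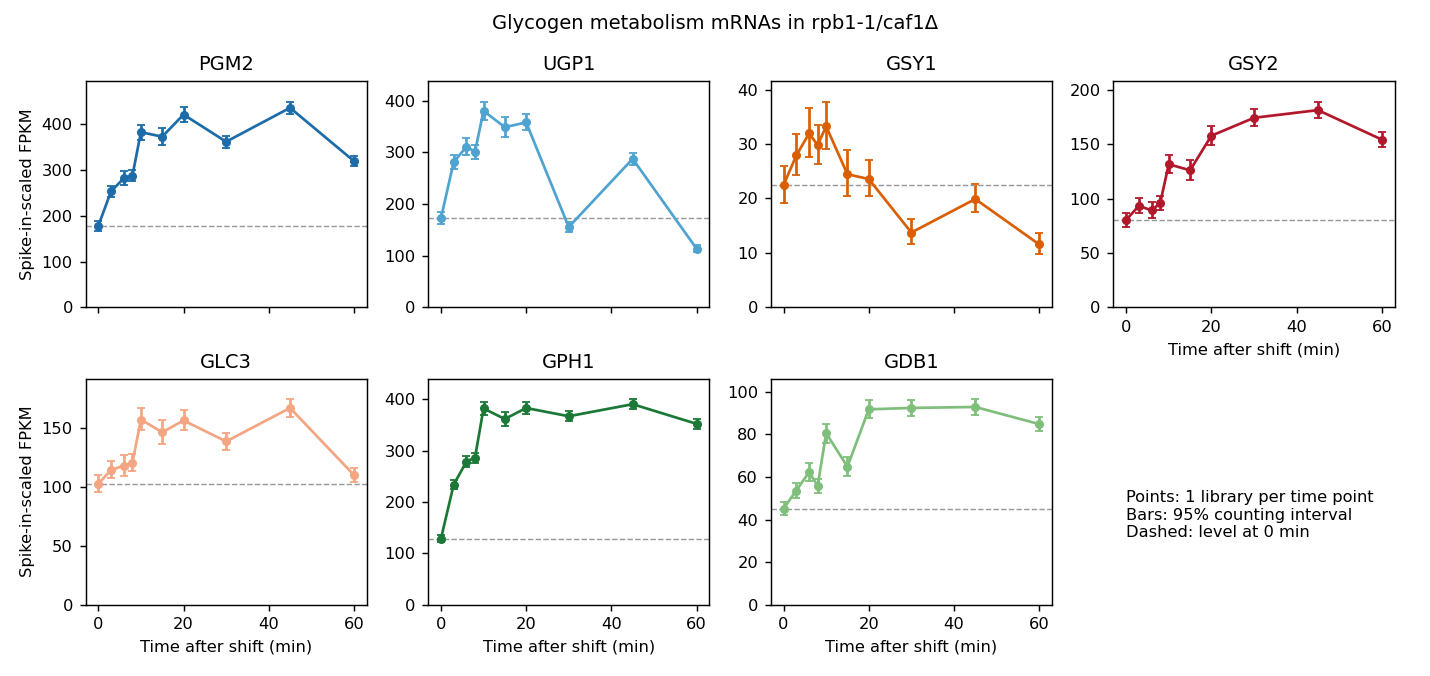
Spike-in-scaled FPKM of the 7 glycogen metabolism mRNAs against time after the shift in min, 1 library per point, with 95% counting intervals as bars and the 0 min level as a dashed line. GPH1 stays between 353 and 391 from 10 min on, whereas UGP1 and GSY1 peak at 10 min and lie below their 0 min level at 30 and 60 min.

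PGM2, the major phosphoglucomutase (chromosome XIII, 475897 to 477606 in R64, minus strand, 1 exon), had scaled FPKM of 178, 254, 282, 288, 383, 373, 422, 362, 436 and 320 at the 10 time points, from 0 min to 60 min. The 2 lowest values are those of 0 and 3 min, and every later value exceeds both. Its highest level, at 45 min, was 2.45 times that at 0 min (2.29 to 2.62), and at 60 min it still stood at 1.80 times (1.68 to 1.93).

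UGP1, the single gene for UDP-glucose pyrophosphorylase (chromosome XI, 369891 to 371390, plus strand, 1 exon), followed another course. Its scaled FPKM were 172, 281, 311, 301, 380, 349, 358, 155, 288 and 113 at the 10 time points in order. The peak at 10 min was 2.21 times the 0 min level (2.04 to 2.40). The values at 30 and 60 min lie below the 0 min value, and the 45 min value lies well above both. At 60 min UGP1 stood at 0.659 times its 0 min level (0.602 to 0.723), which is 29.8% of its peak but a higher fold than that of 82.2% of all genes.

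GSY1 and GSY2 encode 2 forms of glycogen synthase, of which GSY2 is known as the main one. GSY1 (chromosome VI, 174265 to 176391, minus strand, 1 exon) was the least abundant of the 7 mRNAs in every library, with 22.4, 27.9, 31.9, 29.8, 33.2, 24.4, 23.6, 13.7, 19.9 and 11.6 scaled FPKM in order of time. These values rest on 135 to 277 estimated fragments per library and have the widest counting intervals of the 7 relative to the level. The excess at 10 min over 0 min was 1.48-fold (1.21 to 1.81), and at 60 min GSY1 stood at 0.515 times its 0 min level (0.410 to 0.646).

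GSY2 (chromosome XII, 660716 to 662833, plus strand, 1 exon) had scaled FPKM of 80.4, 93.4, 89.1, 96.1, 132, 126, 158, 174, 181 and 154 in order of time. Its values fall into a lower set up to 8 min and a higher set from 10 min on, with no overlap. The peak at 45 min was 2.26-fold above 0 min (2.06 to 2.47), and the level at 60 min was 1.92-fold above it (1.75 to 2.10). GLC3, the branching enzyme (chromosome V, 133120 to 135234, plus strand, 1 exon), was the flattest of the 5 mRNAs that stayed above 0 min, with 102, 114, 118, 120, 157, 146, 156, 138, 167 and 110 scaled FPKM. Its peak at 45 min was 1.63 times the 0 min level (1.498 to 1.77). At 60 min the ratio to 0 min was 1.07, and its interval of 0.982 to 1.17 includes no change.

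The mRNAs for both enzymes of breakdown stayed near their peak. GPH1 (chromosome XVI, 861306 to 864014, plus strand, 1 exon) had scaled FPKM of 129, 234, 279, 287, 383, 362, 383, 367, 391 and 353 in order of time. It was already 1.82 times its 0 min level at 3 min and was 3.04 times that level at 45 min (2.86 to 3.23), the largest fold among the 7. GDB1 (chromosome XVI, 902044 to 906654, plus strand, 1 exon), the longest of the 7 coding sequences, had 45.2, 53.6, 62.3, 55.8, 80.5, 64.8, 91.7, 92.4, 92.8 and 84.8 scaled FPKM. Its 4 values from 20 min on exceed all earlier ones, and its peak at 45 min was 2.05 times the 0 min level (1.90 to 2.23). At 60 min GPH1 kept 90.2% and GDB1 91.3% of their highest level, against 85.0% for GSY2, 73.3% for PGM2, 65.9% for GLC3 and 34.8% for GSY1.

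To test these courses against the scatter of the libraries, log2(scaled FPKM + 1) was fitted with limma to straight lines that bend at 15 min, over 5176 genes with a mean scaled FPKM of at least 1. The p-values measure scatter around the lines over 10 single libraries and not the spread of replicate cultures. A call is a Benjamini-Hochberg adjusted p under 0.05 over all genes. From 0 to 15 min, 5 of the 7 mRNAs rose and none fell (none at an unadjusted limma p under 0.05 either), whereas 2.4% of all genes rose and 64.4% fell. The median early slope of the 7 was 0.52 log2 units per 10 min, and that of all genes was -0.585.

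GPH1 had the steepest early rise, 0.86 ± 0.17 log2 units per 10 min (SE, limma adjusted p = 0.00103), followed by PGM2 with 0.71 ± 0.15 (adjusted p = 0.00135) and GSY2 with 0.60 ± 0.15 (adjusted p = 0.00357). These 3 rises were called in each of the 10 fits that left out a library. GDB1 rose by 0.52 ± 0.15 (adjusted p = 0.00975) and GLC3 by 0.41 ± 0.14 (adjusted p = 0.0223). Without the 0 min library, only 3 of the 7 rises were called, since the adjusted p was 0.0758 for GDB1 and 0.0976 for GLC3. GLC3 was also not called without 20 min (adjusted p = 0.0524). The early slope of UGP1, 0.50 ± 0.26, was not called (adjusted p = 0.0964), with an adjusted p of 0.0136 without the 30 min library. UGP1 was called under 3 of the 9 alternatives that kept all libraries, among them the bend at 10 min (adjusted p = 0.0353). For GSY1 the early slope was -0.06 ± 0.20 (adjusted p = 0.796). Each early slope comes from a fit to all 10 libraries, so later values also shape it. At 15 min UGP1 stood at 2.03 times its 0 min level. GSY1 stood at 1.24, 1.42, 1.33 and 1.48 times its own at 3, 6, 8 and 10 min, with counting intervals above 1. At 15 min GSY1 stood at 1.09 times, and the interval includes 1.

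**Figure D2:**
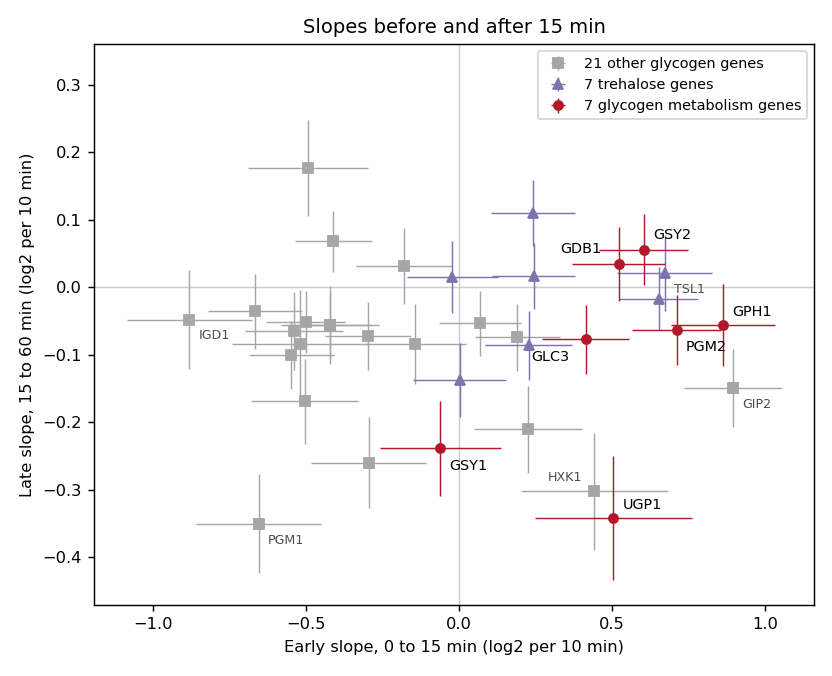
Early slope (0 to 15 min) on the horizontal axis and late slope (15 to 60 min) on the vertical axis, both in log2 units per 10 min with SE from limma as bars, for the 7 glycogen metabolism genes in red, 21 other glycogen genes in grey and 7 trehalose genes in purple. PGM2, GSY2, GPH1, GDB1 and GLC3 lie to the right with late slopes near 0, and UGP1 and GSY1 lie lower, with late slopes of -0.34 and -0.24.

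After 15 min the courses parted. UGP1 fell by 0.34 ± 0.09 log2 units per 10 min (SE, limma adjusted p = 0.0339) and GSY1 by 0.24 ± 0.07 (adjusted p = 0.0450), so 2 of the 7 fell, against 12.6% of all genes. None rose, also at an unadjusted limma p under 0.05, against 0.444% of all genes. The late slopes of the other 5 were between -0.08 for GLC3 and 0.06 for GSY2 and were not called. Both late falls lie close to the threshold and rest on single libraries. Without 60 min the adjusted p was 0.481 for UGP1 and 0.427 for GSY1. UGP1 was called in 5 and GSY1 in 2 of the 10 fits that left out a library. With the bend at 20 min neither was called (adjusted p = 0.166 and 0.227). In that fit, and without the 10, 15 or 60 min library, no gene of the whole table was called as falling late. With the bend at 10 min both were called (adjusted p = 0.00928 and 0.00638), among 1670 falls over all genes.

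The late slope was below the early one in the fit for all 7, and the difference was called for 6 of them, against 2.07% of all genes. For GSY1 it was -0.18 ± 0.24 log2 units per 10 min (SE, limma adjusted p = 0.560). It was -0.92 ± 0.21 log2 units per 10 min for GPH1 (SE, limma adjusted p = 0.00517), -0.77 ± 0.18 for PGM2 (adjusted p = 0.00565) and -0.55 ± 0.18 for GSY2 (adjusted p = 0.0269). For UGP1, GLC3 and GDB1 the adjusted p was between 0.0376 and 0.0492. None of the 6 was called without the 0 min library, where the adjusted p was 0.0619 for PGM2 and 0.0639 for GPH1, and 0 to 5 of the 7 were called over the fits that left out a library.

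One line over the full hour gave fewer calls. GSY2 rose by 0.17 ± 0.05 log2 units per 10 min (SE, limma adjusted p = 0.0106) and GDB1 by 0.14 ± 0.05 (adjusted p = 0.0267), so 2 of the 7 rose, against 1.68% of all genes. GSY1 fell by 0.20 ± 0.05 (adjusted p = 0.00589) and was the single decline among the 7, against 57.7% of all genes. GSY2 was called whichever library was left out, GDB1 was not called without 0, 3 or 45 min (adjusted p = 0.0583, 0.0605 and 0.0615), and GSY1 was not called without 60 min (adjusted p = 0.0836). GPH1 and PGM2, with slopes of 0.14 ± 0.07 and 0.10 ± 0.06, were not called (adjusted p = 0.0838 and 0.136), nor were UGP1 at -0.16 ± 0.08 (adjusted p = 0.0975) and GLC3 at 0.03 ± 0.05 (adjusted p = 0.607). GPH1 and PGM2 were called over the hour on FPKM as deposited (adjusted p = 0.0344 and 0.0358) and with the square root of time (adjusted p = 0.00477 and 0.0146).

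The scaling sets where no change lies. With each library set to the same total FPKM of yeast genes in place of the spike-in factor, the median of all genes at 60 min was 0.926 log2 units higher, at 0.682 of its 0 min level against 0.359 with spike-ins. The early slope calls then split into 366 rises and 2026 falls (15.3% of calls above 0), against 124 and 3334 (3.59%) with spike-ins. For the whole hour the split was 688 and 1471 (31.9%), against 87 and 2988 (2.83%), and for the late slope it was 211 and 316 (40.0%), against 23 and 652 (3.41%). Under that scaling UGP1 at 60 min turned to 1.25 times its 0 min level, GSY1 at 60 min stood at 0.978 times, its fall over the hour was not called (adjusted p = 0.243), and neither late fall was called (adjusted p = 0.0606 for UGP1 and 0.0938 for GSY1). The early rises of PGM2, GSY2, GLC3, GPH1 and GDB1 were called under all 4 scalings tried, and that of UGP1 was then called too (adjusted p = 0.0117). With the same total FPKM the rises over the hour of PGM2 (adjusted p = 0.0122), GPH1 (adjusted p = 0.0142) and GLC3 (adjusted p = 0.0189) were called as well.

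**Figure D3:**
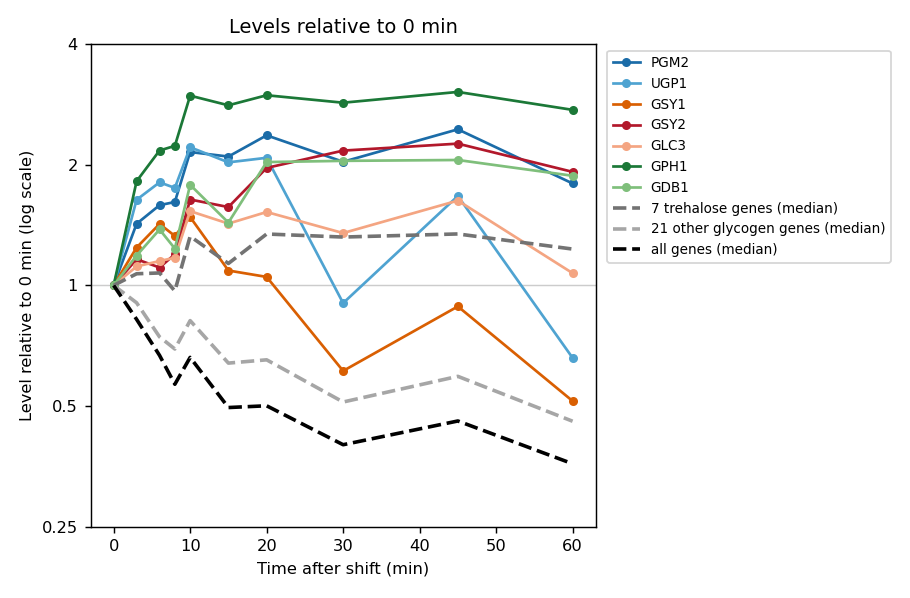
Level relative to 0 min on a log axis against time in min for each of the 7 glycogen metabolism mRNAs (solid lines, 1 library per point), with the medians of 7 trehalose genes, 21 other glycogen genes and all genes as dashed lines. GPH1 is highest from 3 min on, and the median of all genes declines to 0.359 at 60 min.

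Since the study measured mRNA decay, each course was also fitted to an exponential decline from its starting level. A fit passed when its half-life did not exceed 60 min and its mean absolute residual did not exceed 0.14. None of the 7 passed, whereas 53.0% of 5285 fitted mRNAs did. For 6 of the 7 the fitted rate was below 0, so this model gives them no half-life. GSY1 was fitted with a half-life of 155 min and a mean absolute residual of 0.246. Models that do not fix the start gave declines for both GSY1 and UGP1. A free starting level gave 51.9 min for GSY1 and 92.4 min for UGP1, and a straight line through the natural log of the level gave 47.4 min and 62.6 min. The free-start fits had mean absolute residuals of 0.156 and 0.395, above the limit, and both UGP1 values exceed 60 min. The straight line was not held to the residual limit. With the same total FPKM in each library and a fixed start, the fitted rate of GSY1 was below 0.

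The 2 glycogen synthase mRNAs moved apart. Within a library the ratio of GSY2 to GSY1 needs no scaling between libraries. In the libraries of 0, 6, 15, 20, 30, 45 and 60 min this ratio was 3.58, 2.79, 5.16, 6.70, 12.7, 9.12 and 13.4, in that order. The log2 ratio increased by 0.39 per 10 min (permutation test over the 10 libraries, two-sided, 100000 resamples, p = 0.00098, also after adjustment over the 2 pairs tested), with 0.36 to 0.46 when single libraries were left out. This pair was chosen after its values were seen, and the adjustment does not allow for that choice. The p-value measures a trend over 10 single libraries and not the spread of replicate cultures. The proteins are 82.0% identical over 704 aligned residues and the coding sequences 72.7% identical, with 20 bases as the longest run shared in the alignment. How reads that fit both genes were divided between them is not given in the sources used here.

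PGM2 and PGM1, the minor phosphoglucomutase gene (YKL127W), parted more widely. The ratio of PGM2 to PGM1 in the libraries of 0, 3, 10, 20, 30, 45 and 60 min was 2.91, 5.24, 7.67, 14.7, 27.0, 22.7 and 36.3, in that order. The log2 ratio increased by 0.54 per 10 min (permutation test as above, p = 8e-05, adjusted p = 0.00016), with 0.48 to 0.65 when single libraries were left out. PGM1 itself had 8.82 scaled FPKM at 60 min, against 61.2 at 0 min. These 2 proteins are 79.1% identical and the coding sequences 72.5%, with 23 bases as the longest shared run. Both ratio tests were chosen after the values of these genes were seen.

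The mRNAs for synthesis were set against those for breakdown within each library. The summed FPKM of GSY1, GSY2 and GLC3, divided by that of GPH1 and GDB1, was 1.18 before the shift, 0.819 after 3 min and 0.700 after 6 min. It then stayed between 0.631 and 0.761 up to 60 min. The 0 min library alone lies above 1, and that level has no replicate check. The early difference was that of GPH1. The synthesis sum over GPH1 alone was 1.006 at 3 min, 0.820 at 15 min and 0.782 at 60 min, against 1.60 before the shift. Over GDB1 alone it was 4.39 at 3 min, 4.58 at 15 min and 3.25 at 60 min, against 4.54 before the shift.

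**Figure D4:**
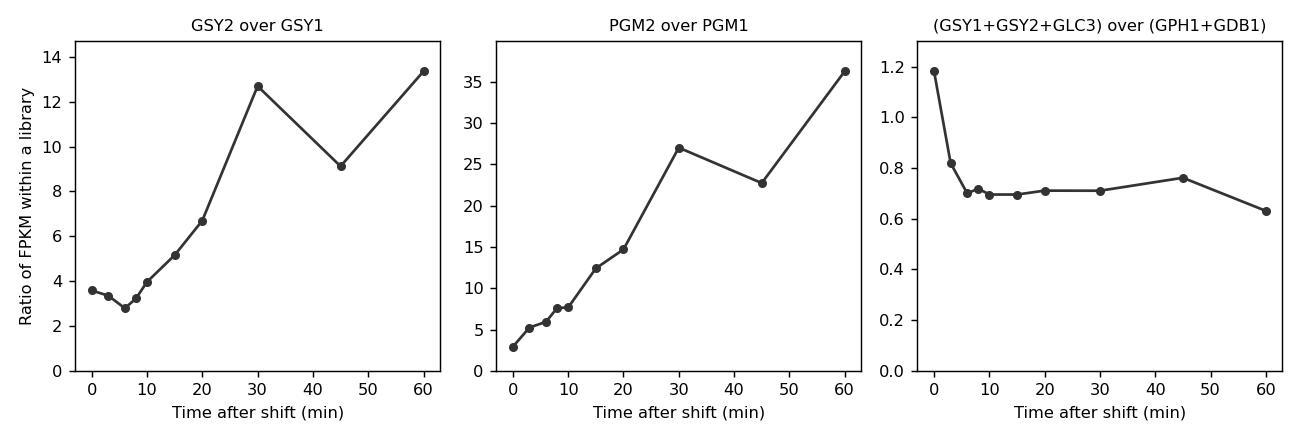
Ratio of FPKM within each library against time in min for GSY2 over GSY1, PGM2 over PGM1, and the synthesis mRNAs (GSY1, GSY2 and GLC3) over the breakdown mRNAs (GPH1 and GDB1), with linear axes that start at 0 and 1 library per point. The first ratio is 13.4 and the second 36.3 at 60 min, and the third is 0.631 at 60 min against 1.18 at 0 min.

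The 7 courses differed in shape. Over the 10 libraries, log2 profiles of PGM2, GSY2, GLC3, GPH1 and GDB1 correlated with each other with Pearson's r between 0.71 and 0.96, and UGP1 with GSY1 with r = 0.85. Between the 2 sets r was between -0.60, for GSY1 with GSY2, and 0.56, for UGP1 with GLC3, and UGP1 had r = 0.35 with PGM2 and 0.26 with GPH1, so the sets are not cleanly split. These values describe 10 libraries in time order that share 1 spike-in factor each. The median profile of the 7 was most like that of GDB1 (r = 0.99) and unlike those of UGP1 (r = 0.03) and GSY1 (r = -0.43). Each gene is part of that median. In folds over 0 min, the median of the 7 is GDB1 itself at 10, 20 and 45 min and GSY1 itself at 3, 6 and 8 min. Outside the glycogen and trehalose genes, the 5 profiles closest to that median, among 4070 genes with a mean of at least 10 scaled FPKM, were those of HSC82 (YMR186W, r = 0.989), an Hsp90 chaperone whose reads may be shared with its near-identical copy HSP82, CAT8 (YMR280C, r = 0.986), a transcription factor of gluconeogenic genes, NNR2 (YKL151C, r = 0.979), a repair enzyme for hydrated NAD(P)H, YRO2 (YBR054W, r = 0.977) and RTS3 (YGR161C, r = 0.974). HSC82 had 2057 scaled FPKM at 60 min, against 1074 at 0 min. In all, 45 of the 4070 genes had r of at least 0.9.

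UGP1 and GSY1 also shared a level at 45 min above those at 30 and 60 min. The level at 45 min was 1.85 times that at 30 min and 2.53 times that at 60 min for UGP1, and 1.45 and 1.72 times for GSY1. Both ratios were at least 1.4, a limit set after the values were seen, for these 2 of the 7 and for 14.8% of 5144 genes. Among the other glycogen genes HXK1, HXK2, GLK1 and PGM1 also had both ratios at or above the limit, and the rest did not. A set of 136 genes was taken by symbol (RPL, RPS or RPP and a digit), most of them ribosomal protein genes. Of these 87.5% had both ratios at or above the limit. This set was not named in advance. For GPH1 the ratios were 1.06 and 1.11, and for GDB1 1.00 and 1.09. Over the 5144 genes the median ratios were 1.13 to 30 min and 1.25 to 60 min. Which of the 30, 45 and 60 min libraries stands apart cannot be told from these values. Without 45 min the late slopes were -0.42 log2 units per 10 min for UGP1 (limma adjusted p = 0.00989) and -0.28 for GSY1 (adjusted p = 0.0270). Without 30 min they were -0.35 for UGP1 (adjusted p = 0.00492) and -0.25 for GSY1 (adjusted p = 0.0106). UGP1 also fell over the full hour without 45 min (adjusted p = 0.0447).

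The other genes of glycogen metabolism, 21 in number, mostly went the way of all genes. They are the glycogenin primers, the Glc7 phosphatase with its regulators, the kinases and cyclins that act on glycogen synthase, the enzymes of hexose phosphate supply, the debranching inhibitor gene IGD1 and the glucoamylase gene SGA1. From 0 to 15 min 1 of the 21 rose and 11 fell, against 2.4% and 64.4% of all genes, with a median slope of -0.42 log2 units per 10 min. Those that fell are GLC7, PIG1, GLC8, PHO85, PCL8, PCL10, SNF1, PSK2, GLK1, PGM1 and IGD1. The one that rose is GIP2 (YER054C), a Glc7 regulatory subunit, with 0.89 ± 0.16 (SE, limma adjusted p = 0.00058) and 70.4 scaled FPKM at 20 min against 27.9 at 0 min. At 10 min HXK1 stood at 2.54 and EMI2 at 1.68 times the 0 min level, but their early slopes were not called (limma adjusted p = 0.118 and 0.270). IGD1 (YFR017C), whose product inhibits the debranching enzyme, had the steepest fitted early fall of the 21, 0.88 ± 0.20 (adjusted p = 0.0028). It had 27.0 scaled FPKM at 0 min (45 estimated fragments), 15.3 at 15 min (18 fragments) and 7.34 at 20 min (13 fragments). At 15 min itself IGD1 stood at 0.566 times its 0 min level, a higher fold than that of 61.2% of all genes. Over the hour 12 of the 21 fell, against 57.7% of all genes, and none rose (none at an unadjusted limma p under 0.05), the 12 being GLG2, GLC7, GAC1, PIG1, GLC8, PHO85, PCL8, SNF1, HXK2, GLK1, PGM1 and IGD1. After 15 min 4 of the 21 fell, against 12.6% of all genes, all of them enzymes of hexose phosphate supply (HXK1, HXK2, EMI2 and PGM1). None of these 4 late falls was called with the bend at 20 min or without the 10, 15 or 60 min library, where no gene of the whole table was called as falling late.

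Trehalose, the other glucose store of yeast, is made by an enzyme complex of Tps1, Tps2, Tps3 and Tsl1 and degraded by the trehalases Nth1, Nth2 and Ath1. Of these 7 genes 2 rose from 0 to 15 min and none fell, also at an unadjusted limma p under 0.05, against 2.4% and 64.4% of all genes. TSL1 rose by 0.67 ± 0.16 log2 units per 10 min (SE, limma adjusted p = 0.0028) and ATH1 by 0.65 ± 0.13 (adjusted p = 0.00107). Over the hour TSL1, NTH1 and ATH1 rose and TPS2 fell, against 1.68% of all genes that rose and 57.7% that fell. TSL1 had 625 scaled FPKM at 60 min, against 292 at 0 min. At 60 min the median fold over 0 min was 1.80 for the 7 glycogen genes and 1.23 for the trehalose genes, and that difference was not tested.

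The motif counts upstream overlapped between the 2 sets. UGP1 has 4 and GSY1 has 2 matches, and the 5 mRNAs whose early rise was called have 1 to 5. Of the other 21 glycogen genes 13 (61.9%) have at least 1 match, and of the 7 trehalose genes 6 (85.7%), against 33.7% of all genes. GIP2 has 0 and IGD1 has 2 matches. A link between matches and courses was not tested. The share of optimal codons (9 amino acids counted), taken from the codons that differ between the optimal and non-optimal reporter of the study and not the study's genome-wide measure, was computed for each coding sequence. It was 79.8% for UGP1, 75.6% for PGM2, 70.6% for GPH1, 65.4% for GLC3, 62.6% for GSY1, 62.4% for GSY2 and 56.2% for GDB1. All 7 lie above the median of 52.7% over all genes. GSY1 and GSY2 differ by less than 1 percentage point in this share. A link between the share and the courses was not tested. None of the 7 coding sequences overlaps another annotated gene that was matched in R64. Whether the counting used the strand of the reads is not given in the sources used here.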

How the data were processed

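RNA of rpb1-1/caf1Δ cells was measured in 10 libraries, 1 per time point. Paired reads were aligned by the authors with Bowtie 0.12.7 to the SacCer2 build, and they deposited FPKM values from Cufflinks 1.3.0, without spike-in scaling. Libraries were made with stranded mRNA or total RNA kits, and which kit made which library is not given in the sources used here. The strain is yJC1257 in one label and yJC244 in another, which do not match. In the study's strain list yJC1257 carries caf1::HIS3 and yJC244 carries no caf1 deletion. The level of CAF1 (POP2), 0.887 scaled FPKM at 0 min and 0 at 30 and 60 min, is that of a strain without CAF1. A second culture they mention was not analysed here.

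Values were scaled by dividing each FPKM by a library factor, the spike-in FPKM sum over that at 0 min. Of 6717 yeast genes, 6025 matched RefSeq R64 by systematic name. Since FPKM are not counts, log2(scaled FPKM + 1), with a pseudocount of 1, was tested for slopes with limma 3.58.1 (R 4.3.3). Time in min entered as 1 line, or as 2 lines joined at 15 min, and p-values were adjusted over 5176 genes with a mean of at least 1. A simulated data set with known changes was used to test the script. Depth was estimated from the steps of low FPKM values of genes with at least 900 coding bases. Other steps used Python 3.11.15, numpy 2.4.6, pandas 2.3.3 and scipy 1.17.1.

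All 7 genes are named in the text. Of the other lists, genes past the early or whole-hour test are named, and the 5 closest profiles. HXK1 and EMI2, past the late test only, were named after their values were seen. The members, lists and tests were chosen with earlier results of these data known. Alternatives were 3 other scalings, pseudocounts of 0.1 and 5, no filter and a mean of at least 10, a bend at 10 or 20 min, the square root of time, other decay models, and leaving out each library.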

Additional observations from a re-analysis of the deposited data

How the results depend on the processing

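The early rises of PGM2, GSY2 and GPH1 were called under all 19 alternatives, that of GDB1 under 18 and that of GLC3 under 17. No paired analysis was possible because there is 1 strain with 1 library per time point.

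On FPKM as deposited, 4 of the 7 and 283 of all genes rose over the hour, 257 of all genes rose early, 1 of the 7 fell late and 113 of all genes rose late, and for 194 a late slope below the early one was called. Then 131 genes were at least 2-fold above 0 min at 15 min and 132 at 60 min, 4 of the 7 among the latter. With the same total FPKM, 5 of the 7 rose and 0 fell over the hour, with 688 rises and 1471 falls over all genes. The early counts were 366 and 2026, the late counts 211 and 316, with 0 of the 7 falling. A late slope above the early one was called for 1514 genes and one below it for 228, 1407 mRNAs passed the half-life filters, 164 genes were at least 2-fold above 0 min at 15 min and 296 at 60 min, with 5 of the 7 at 60 min, and UGP1 reversed to 1.253 times its 0 min level. With the square root of time 4 of the 7 rose. The late falls of the 7 numbered 1 with a pseudocount of 0.1, 0 without a filter and 0 with the bend at 20 min. Over all genes the late counts were 0 rises and 1 fall without a filter, 88 and 1670 with the bend at 10 min, and 0 and 0 with the bend at 20 min. A straight line through the log passed 1 of the 7 for a half-life. The causes were not tested.

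Leaving out single libraries gave 1 to 3 rises and 0 to 2 falls of the 7 over the hour (51 to 101 rises and 2453 to 3108 falls over all genes), 3 to 6 early rises (76 to 142 rises, 2060 to 3402 falls), and 0 to 2 late falls (0 to 69 rises, 0 to 1031 falls). A late slope below the early one was called for 0 to 5 of the 7 (48 to 129 over all genes) and one above it for 958 to 2335 genes. Between 2703 and 3246 mRNAs passed for a half-life. The log2 ratio slopes were 0.36 to 0.46 for GSY2 over GSY1 and 0.48 to 0.65 for PGM2 over PGM1, and 0.69 and 0.99 without both 45 and 60 min, an alternative chosen after seeing the data. With 135 to 277 fragments per library, GSY1 has the least precise levels of the 7.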
